A study of Mus musculus with 8 samples.

Results

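The genes described here encode the proteins of the mitochondrial ribosome. They were chosen as protein-coding genes whose symbol begins with Mrpl or Mrps, after each Ensembl identifier in the deposited table was matched to GENCODE M21, with pseudogene symbols left out. The rule gave 78 genes among 21876 protein-coding genes with values, namely 49 with Mrpl symbols (large subunit) and 29 with Mrps symbols (small subunit). RNA was sequenced from wild-type mouse embryonic stem cells (mESCs), pluripotent cells of the early embryo, in a study of how the long non-coding RNA linc1393 bears on pluripotency. There were 8 libraries in 4 groups of 2: cells left untreated (control) and cells given sh-linc1393, sd-linc1393 or dd-linc1393, called sh, sd and dd below. The meaning of sd and dd is not in the labels, which also name no cell line and no reagent control, so the effect of a reagent and that of its target cannot be told apart. No row of the table was tied to linc1393, and its level was not analysed here, which leaves the treatments without a check on the targeted RNA.

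The mitochondrial ribosome translates the few proteins that the mitochondrial genome still encodes, all of them parts of the respiratory chain and the ATP synthase. Its own proteins are encoded in the nucleus, made on cytosolic ribosomes and imported. The small subunit holds the messenger RNA and reads its codons, the large subunit joins the amino acids, and both combine proteins of bacterial descent with proteins found only in mitochondria. Pluripotent stem cells draw much of their energy from glycolysis, and their mitochondria are less developed than those of differentiated cells.

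Values are FPKM, fragments per kilobase of a gene scaled to a library total, as the authors deposited them. Between 3407463 and 20366936 reads per library were recovered from the steps of the values over matched genes, with both control libraries at the low end (6407762 and 3407463). The libraries divided by their replicate number more than by their treatment. Summed FPKM over all genes was 540017 to 632749 in the 4 replicate 1 libraries. In the replicate 2 libraries it was 888554 to 1079205. Of 1135 olfactory receptor genes, normally silent in these cells, 5.29% to 8.19% were above 0 in replicate 1 and 50.4% to 97.8% in replicate 2. The 10 pluripotency markers all had a mean FPKM of at least 1, with a summed level of 1426 to 1857 in replicate 1 and 6941 to 10044 in replicate 2. Dppa5a carried that gap, and the other 9 markers summed to 1052 to 1361 and 1076 to 1731. These sums hide single markers. Pou5f1, replicate 1 first, was at 83.1 and 251 in control, 24.2 and 14.7 in sh, 17.8 and 130 in sd, and 21.03 and 53.1 in dd. Each treated library was thus below the control library of its replicate number. Tdgf1 and Zfp42 were above that control library in every treated library. Sox2 was at 19.7 in the replicate 2 library of sh and at 177 to 371 in the others. Of 8 fibroblast markers 1 reached a mean FPKM of at least 1, and the list summed to 0.466 to 8.68. All 7 primitive endoderm markers reached it, with sums of 25.3 to 37.3 in replicate 1 and 1.70 to 10.2 in replicate 2, and no marker of any list was at 0 in every library. Whether the paired libraries of a group are separate cultures is not recorded in the labels, and the p-values below measure only how these libraries vary, which may be technical. In bulk RNA, fewer expressing cells and less RNA per cell cannot be told apart.

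Nearly the whole set was detected in every library. A few reads in replicate 2 do not show transcription, since 50.4% to 97.8% of olfactory receptor genes were above 0 there. Of the 78 genes, 75 had at least 3 recovered reads in all 8 libraries, and 77 passed the filter for testing, a mean FPKM of at least 1 (48 large, 29 small). The median gene had 134 to 1057.5 reads per library. In each pair of values below the replicate 1 library comes first. The median level of all 78 genes was 9.58 and 19.1 FPKM in control, 9.14 and 22.2 in sh, 11.4 and 22.1 in sd, and 10.3 and 22.9 in dd. The replicate 2 library was the higher in each group, and the 4 groups overlapped. Large-subunit genes had a higher median than small-subunit genes in all 8 libraries, with the small-to-large ratio between 0.501 and 0.745. The large-subunit medians were 9.77 and 20.9 in control, 10.3 and 22.9 in sh, 13.1 and 23.0 in sd, and 12.1 and 27.9 in dd. Those of the small subunit were 7.27 and 12.5, 7.41 and 15.6, 8.12 and 11.5, and 8.01 and 14.3 in the same order.

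**Figure D1:**
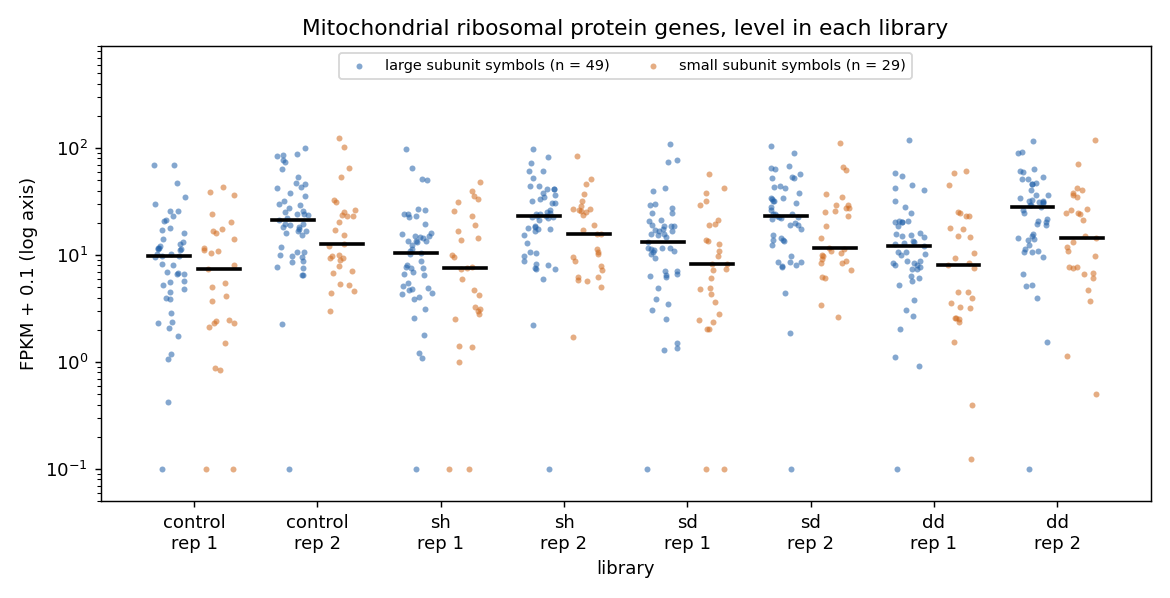
Level of each of the 78 genes (points, FPKM + 0.1 on a log axis) in each library (x axis), large subunit in blue and small subunit in orange, with black lines at the medians. Medians of the large subunit lie between 9.77 and 13.1 FPKM in the replicate 1 libraries and between 20.9 and 27.9 in the replicate 2 libraries.

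Within the small subunit, the split by descent was wider than that between the subunits. The 9 mitochondria-specific small-subunit genes had medians of 2.23 to 5.94 FPKM in replicate 1 and 7.21 to 9.80 in replicate 2. The 17 genes of bacterial families stood at 9.23 to 10.3 and 22.9 to 25.9. In the large subunit the order was the other way: the 19 mitochondria-specific genes had medians of 11.2 to 15.7 and 22.2 to 30.8, and the 30 of bacterial families 7.56 to 11.5 and 20.1 to 22.8. No test was made of these differences between gene classes.

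Summed over the 78 genes, the level was 983 to 1277 FPKM in replicate 1, and in replicate 2 it was 1947 to 2165. As a share of all FPKM it hardly varied: 0.182% and 0.212% in control, 0.200% and 0.219% in sh, 0.210% and 0.205% in sd, and 0.199% and 0.201% in dd. That total was itself higher in replicate 2, while the FPKM of protein-coding genes tested changed little. It summed to 291364 and 278094 in control, 292828 and 304126 in sh, 308333 and 302822 in sd, and 315451 and 285159 in dd. The steady share of the 78 genes thus depends on the total chosen. The 84 cytosolic ribosomal protein genes, which build the ribosome of the cytoplasm, did not keep a stable share of all FPKM. They took 1.90% and 4.50% in control, 2.24% and 3.96% in sh, 2.40% and 3.44% in sd, and 1.97% and 3.74% in dd, the replicate 2 library being higher in all 4 groups. The median cytosolic gene stood 5.63 to 7.96 times above the median mitochondrial one in replicate 1 and 9.37 to 16.1 times in replicate 2.

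**Figure D2:**
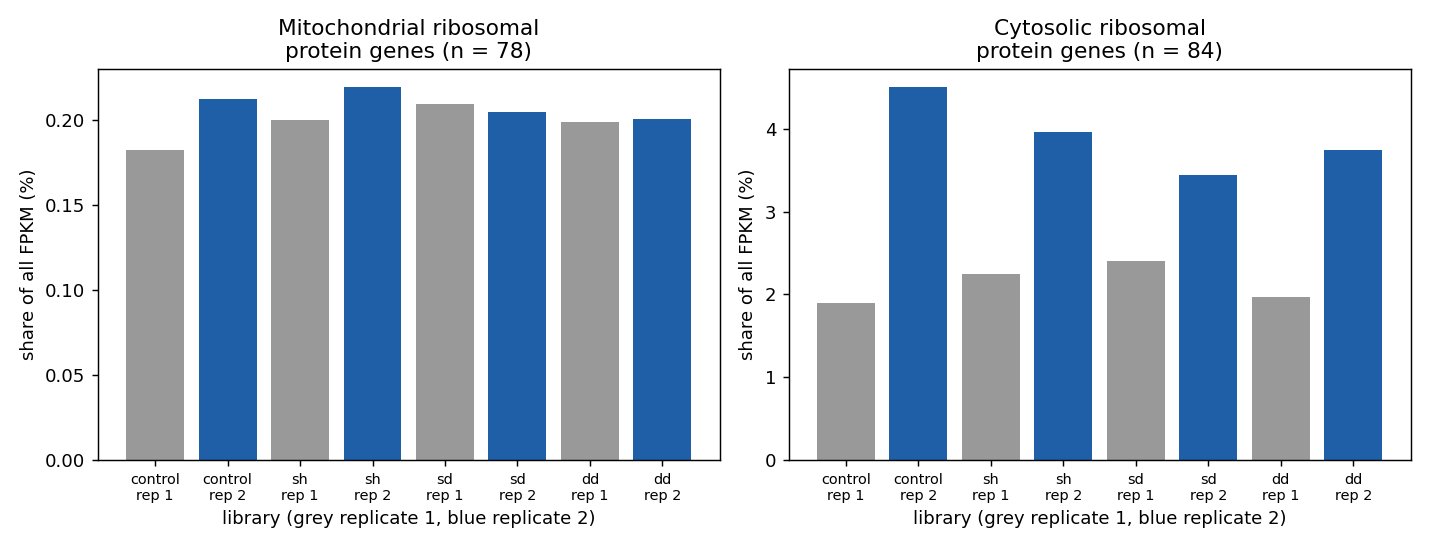
Share of all FPKM (%) in the mitochondrial (left) and cytosolic (right) ribosomal protein genes, 1 bar per library, grey for replicate 1 and blue for replicate 2. The mitochondrial share lies between 0.182% and 0.219% in all 8 libraries, while the cytosolic share is 1.90% to 2.40% in replicate 1 and 3.44% to 4.50% in replicate 2.

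Among the large-subunit genes, Mrpl18 had the highest mean over the 8 libraries at 85.1 FPKM. The product of this gene (chromosome 17, 12911349 to 12916345, GRCm38) is the mitochondrial relative of the bacterial protein that binds 5S ribosomal RNA. Mrpl34 (67.1) and Mrpl28 (54.2), both of bacterial families, followed. Mrpl28 was at 11.97 and 87.2 in control, 12.3 and 97.9 in sh, 15.7 and 104 in sd, and 13.4 and 90.6 in dd, so that its replicate 2 libraries were all far above its replicate 1 libraries. The lowest detected large-subunit genes were Mrpl48 with a mean of 1.39 and Mrpl23 with 3.61.

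Several large-subunit proteins have known roles beyond the common core. Mrpl12 and Mrpl10 form the stalk that recruits translation factors, and Mrpl12 also binds the mitochondrial RNA polymerase. Mrpl12 was at 4.68 and 86.5 FPKM in control, 3.75 and 40.9 in sh, 11.1 and 52.4 in sd, and 7.29 and 45.6 in dd. Its partner Mrpl10 was at 5.66 and 17.4, 7.50 and 24.1, 11.5 and 22.3, and 12.1 and 15.0 in the same order, a narrower spread between replicate numbers. Mrpl58, a peptidyl-tRNA hydrolase that can free stalled ribosomes, had low levels of 1.64 to 3.06 in replicate 1 and 9.69 to 12.3 in replicate 2. Mrpl41 was at 10.1 to 20.1 and 41.7 to 63.5. Mrpl45, which lies at the exit tunnel where the ribosome is anchored to the inner membrane, was at 13.3 to 19.3 and 25.6 to 43.9. In these 5 genes every replicate 2 library was above every replicate 1 library. Mrpl44 and Mrpl36 did not follow that order. Mrpl44, which carries a ribonuclease III-like fold, was at 15.8 to 39.3 in replicate 1 and 18.1 to 23.9 in replicate 2. Mrpl36, one of the smallest proteins of the subunit, was at 47.4 to 77.2 in replicate 1 and 32.2 to 47.1 in replicate 2, the 2 sets being separate and in the opposite order.

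The highest small-subunit means were those of Mrps28 (62.8 FPKM), Mrps24 (49.2) and Mrps2 (37.5), and the lowest those of Mrps34 (1.11), Mrps18b (1.66) and Mrps25 (3.59). Mrps12, the homologue of the bacterial protein at the decoding centre, was at 15.9 and 64.7 in control, 9.52 and 46.2 in sh, 13.3 and 62.2 in sd, and 15.0 and 36.4 in dd. Mrps5 was at 2.48 to 4.73 in replicate 1 and 8.65 to 9.11 in 3 of the replicate 2 libraries, with 6.67 in dd. Mrps2 ran against this order with 39.9 to 61.3 in replicate 1 and 20.04 to 26.9 in replicate 2. Mrps36, long counted as a ribosomal protein and now known as a part of the oxoglutarate dehydrogenase complex, varied least among these, between 10.4 and 21.1 over all 8 libraries.

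Mammals have 3 proteins related to bacterial S18, and their genes differed in level. Mrps18c was at 36.4 and 17.02 in control, 25.8 and 16.9 in sh, 12.7 and 11.3 in sd, and 17.8 and 13.1 in dd. Mrps18a, whose product sits on the large subunit in structures despite its symbol, was at 4.90 and 9.33, 4.16 and 9.45, 2.28 and 8.36, and 2.28 and 3.66 in the same order. Mrps18b was listed at 0 in the control, sh and sd replicate 1 libraries, with 4.32, 5.72 and 2.52 in their replicate 2 partners, and at 0.2998 and 0.399 in dd. Mrps30, the other Mrps symbol placed on the large subunit, was at 7.27 to 8.12 in replicate 1 and 9.27 to 14.3 in replicate 2.

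Where gene models overlap, levels of these genes are uncertain, since how reads in shared bases were assigned is not given in the sources used here. Exons of 33 of the 78 genes overlapped those of another gene, and 13 shared at least 20% of their 31-base stretches with other transcripts. Mrpl53 was at 0 in all 8 libraries. Of its 790 exon bases, 695 lie within exons of Gm42688 on the same strand, and 84.4% of its stretches were shared; 3 reads would have given 0.592 FPKM in the first control library. Mrps34, with 73.8% shared and overlaps with Mapk8ip3 and Nme3, was listed at 0 in 3 replicate 1 libraries and at 0.0253 in that of dd, with 1.05 to 3.31 in replicate 2. Mrps18c shared 34.5% (Gm43511, same strand) and Mrps18b 31.6%. Mrpl18 shared 16.3%, and 141 of its 1398 exon bases overlap exons of Tcp1 on the other strand. Processed copies were also listed with sizeable levels: Mrpl23-ps1 at 15.6 to 169 FPKM over the 8 libraries, against 0.958 to 8.73 for Mrpl23 itself, and Mrps36-ps1 at 14.8 to 138.

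Most genes of the mitochondrial ribosome were higher in the replicate 2 libraries than in the replicate 1 libraries of their groups. With group as a term, limma called 50 of 77 genes higher and 4 lower at an adjusted p under 0.05 (Benjamini-Hochberg over all 14561 genes tested), where 46.6% of all genes were called higher and 14.6% lower. Of protein-coding genes tested, 35.0% were called higher and 18.9% lower. By subunit, 31 of 48 large-subunit genes were higher and 2 lower, and 19 of 29 small-subunit genes were higher and 2 lower. The median difference was 0.93 on the log2(FPKM + 1) scale, against 0.73 over all genes and 0.31 over protein-coding genes, or 0.83 for the large and 1.08 for the small subunit. These counts moved with the scaling of the libraries: 26 higher and 11 lower with median ratio scaling, 24 and 11 with quantile normalization, and 25 and 11 with voom on recovered reads. Over all genes, 34.3%, 27.6% and 34.2% were called higher and 24.9%, 29.8% and 27.3% lower under the same settings. The higher counts of the 77 thus lie near that background under each scaling, and the lower counts lie below it. Those scalings lowered the median over all genes to 0.24, 0.02 and 0.30, and the excess of the 77 genes over it was 0.20 as deposited and 0.08, 0.35 and 0.08 under them. The median of each subunit stayed above 0 in all of them, but that of the large subunit stood below the all-gene median with median ratio scaling (-0.02), voom (-0.01) and a pseudocount of 0.1 (-0.09). Leaving out 1 library at a time gave 38 to 45 genes higher and 2 to 4 lower, where 34.9% to 47.1% and 10.1% to 13.5% of all genes were called.

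**Figure D3:**
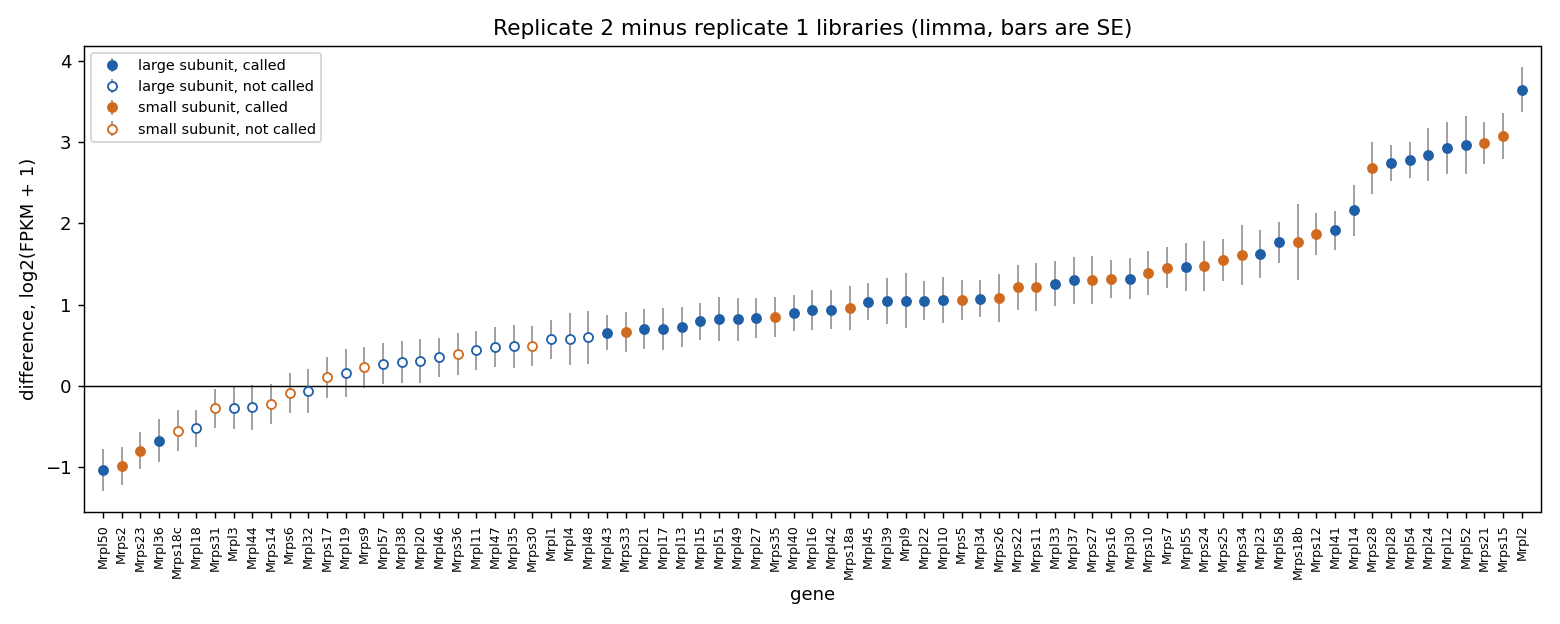
Difference between the replicate 2 and replicate 1 libraries (log2(FPKM + 1), limma, group as a term) for each of the 77 genes tested, with its SE, ordered by size and coloured by subunit. Filled points passed an adjusted p under 0.05, 50 above 0 and 4 below; differences run from -1.03 for Mrpl50 to 3.65 for Mrpl2.

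Separation between the replicate numbers was complete for many of the genes. For 50 of them all 4 replicate 2 libraries were above all 4 replicate 1 libraries, and for 4 all were below, beside 41.9% and 14.2% of all genes tested. In 19 genes with a value above 0 in each replicate 1 library, the replicate 2 library was more than 2-fold higher in all 4 groups, and in 6 of them more than 5-fold, beside 19.9% and 5.82% of all genes tested. The largest difference was that of Mrpl2, a bacterial-family protein near the peptidyl transferase centre. Its levels were 2.80 and 73.4 FPKM in control, 5.35 and 72.1 in sh, 3.78 and 65.2 in sd, and 5.62 and 51.2 in dd. The limma difference was 3.65 (SE 0.28, adjusted p = 1.11e-05). Next came Mrps15 (3.07), Mrps21 (2.99), Mrpl52 (2.96) and Mrpl12 (2.93), with adjusted p-values in limma of 2.94e-05, 2.49e-05, 0.000131 and 7.85e-05.

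A small set of genes ran the other way. Mrpl50 was at 69.7 and 22.2 FPKM in control, 51.2 and 32.2 in sh, 74.3 and 30.4 in sd, and 54.5 and 36.0 in dd, lower in replicate 2 in each group by -1.03 (SE 0.26, adjusted p = 0.00758 in limma). Mrps2 differed by -0.98 (SE 0.23, adjusted p = 0.00589) and Mrps23, a mitochondria-specific protein, by -0.80 (SE 0.23, adjusted p = 0.0142), both in limma. Mrpl36 passed narrowly at -0.67 (SE 0.26, adjusted p = 0.0494 in limma). The calls of Mrpl50, Mrps23 and Mrpl36 depended on single libraries: Mrpl50 missed the threshold without sd replicate 1 (-0.95), Mrps23 without sh replicate 1, sh replicate 2 (both -0.78) or dd replicate 1 (-0.70), and Mrpl36 without any of the sh (-0.60), sd (-0.48) or dd (-0.71) libraries and with no filter on low values (-0.67). Mrps18c, at -0.55, did not pass (SE 0.25, adjusted p = 0.0858 in limma), yet it passed under the quantile, median ratio and voom scalings, with -1.06, -1.18 and -1.15.

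The order of the 77 genes by level was nearly the same in libraries that share a replicate number, and looser within a group. Spearman correlations across the 77 genes were 0.877 to 0.980 between libraries of the same number and 0.566 to 0.693 between both libraries of a group. The difference between replicate numbers followed the GC content of the longest coding transcript (Spearman 0.51 across the 77 genes, 0.47 across 9934 protein-coding genes) and its length (-0.37 and -0.44). It did not follow the share of stretches held in common with other transcripts (0.02). Genes are not independent replicates, these points share their libraries, and any part of GC content, length or depth in the difference was not tested. The cytosolic ribosomal protein genes differed by a median of 2.11, with 76 of 84 higher and 2 lower, and by medians of 1.45, 1.12 and 1.52 under median ratio, quantile and voom scaling. The 13 protein-coding transcripts of the mitochondrial genome, which these ribosomes translate, stood at a median of -1.40 (3 higher, 8 lower), and stayed below 0 in all 3 scalings (-2.06, -1.57 and -2.03).

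None of the genes passed the test in a comparison of treated with control cells, which asks how each reagent moved the transcriptome. In sh, sd and dd, limma called 0 of 77 genes, and 0 of 14561 over all genes (0%). With unadjusted p-values at the same threshold of 0.05 the count was also 0 of the 77 in each, against 32, 50 and 83 of all genes, and voom on recovered reads called 0 of the 77 too. The test was coarse: with no term for the replicate number, the median SE of the 77 differences was 0.74. Their median 95% interval reached 1.77 to either side on the log2(FPKM + 1) scale. Adding that term lowered the median SE to 0.36, again with 0 of the 77 called. Unadjusted limma p-values were then under 0.05 for 0, 4 and 5 of the 77 in sh, sd and dd. Over all genes the counts were 480, 945 and 1310. The low counts without the term thus cannot show that the treatments left these genes unchanged. SEs and intervals of single genes against control, given below, come from the fit without it. The 3 comparisons share their control libraries.

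Median differences of the 77 genes from control were 0.10 in sh, 0.22 in sd and 0.22 in dd, beside 0.15, 0.17 and 0.06 over all genes tested. By subunit they were 0.10, 0.27 and 0.25 for the large and 0.10, 0.19 and 0.14 for the small subunit. Relative to all genes the 77 stood at -0.05, 0.05 and 0.16 as deposited. Rescaling made the sh median negative (-0.06 with median ratio scaling, -0.05 with quantile normalization, -0.01 with voom), while those of sd and dd were between 0.05 and 0.19. The sign of these medians changed with single libraries left out. In sh the median was -0.37 without control replicate 1, 0.67 without control replicate 2, 0.57 without sh replicate 1 and -0.28 without sh replicate 2. In sd the same 4 values were -0.27, 0.83, 0.62 and -0.12, and in dd they were -0.25, 0.76, 0.71 and -0.23, each time leaving out 1 library. These fits have no term for the replicate number, so they set unequal replicate numbers against each other. All genes moved in the same way in sh: -0.29, 0.64, 0.59 and -0.34 in that order. For each gene, such a shift is set by the gap between the 2 libraries of the group that lost 1. The changes of sign are therefore no measure of how steady a treatment difference is.

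Each treated library was also compared within a replicate number, that is, with the control library of the same number. Medians of the 77 genes were 0.22 in sh, 0.39 in sd and 0.38 in dd in replicate 1. In replicate 2 they were 0.01, 0.04 and 0.10. All genes tested gave 0.10, 0.31 and 0.28 in replicate 1 and 0.20, 0.03 and -0.13 in replicate 2. The higher replicate 1 medians of sd and dd were thus shared by all genes. Beside all genes, the 77 stood further above in replicate 2 than in replicate 1 in dd. Both within-number differences were positive for 24, 32 and 35 of the 77 genes and negative for 11, 7 and 6. Over all genes tested, 35.2%, 37.5% and 30.99% were positive in both and 10.6%, 12.7% and 15.1% negative in both. Few genes had both treated libraries outside both controls. Above the controls were 2 genes in sh, 5 in sd and 5 in dd, when 8.40%, 11.1% and 11.2% of all genes were; below them was 1 gene in each, when 2.13%, 2.69% and 4.72% of all genes were.

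**Figure D4:**
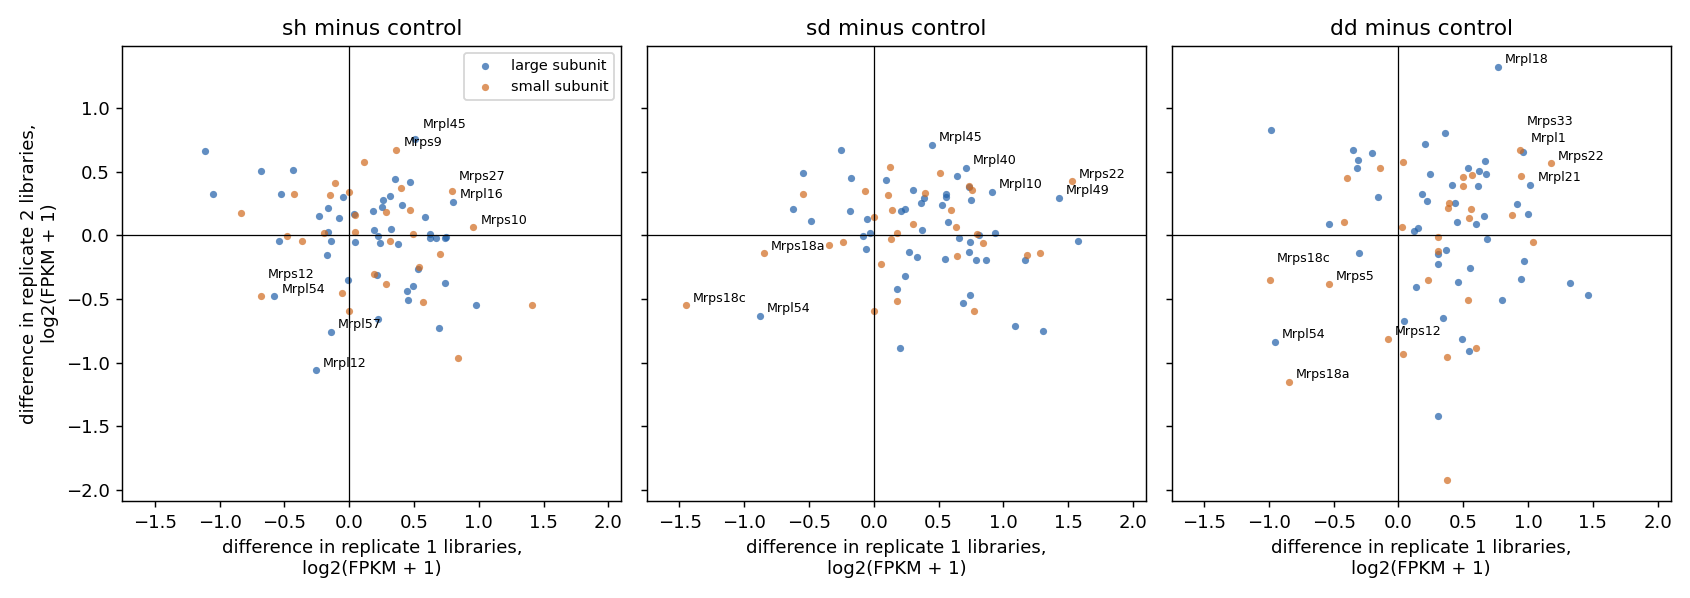
Difference of each treated library from the control library of the same replicate number (log2(FPKM + 1)), replicate 1 on the x axis and replicate 2 on the y axis, 1 panel per treatment, for the 77 genes tested. Genes in the upper right are higher in both numbers (24 in sh, 32 in sd, 35 in dd) and those in the lower left are lower in both (11, 7 and 6); labelled genes are the largest differences of each sign whose 2 values share it.

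In sh, the largest difference with both within-number values above 0 was that of Mrpl45, the membrane-anchoring protein. It was at 13.3 and 25.6 FPKM in control and 19.3 and 43.9 in sh, a difference of 0.63 (SE 0.78, 95% interval -1.23 to 2.50). The ranges overlapped, since the second control library was above the first sh library. Mrps9, a bacterial-family protein of the small subunit, was at 5.41 and 6.69 in control and 7.25 and 11.3 in sh, and its ranges did not overlap (0.52, SE 0.51). Mrps31, chosen here after its values were seen because it was the other gene with both sh libraries above the controls, was at 17.5 and 12.5 in control and 19.0 and 19.0 in sh. The gene below both controls was Mrpl57, at 25.7 and 37.9 in control and 23.2 and 22.0 in sh (-0.45, SE 0.58). The stalk gene Mrpl12 had the largest negative difference at -0.66 (SE 1.74), which became 1.31 without control replicate 2 and 0.91 without sh replicate 1. Yet within each number Mrpl12 was lower in sh, at 3.75 against 4.68 and 40.9 against 86.5. For single genes too, leaving out 1 library sets unequal replicate numbers against each other. Whether a gene keeps its sign, here and below, is therefore set by its difference beside its gap between replicate numbers. A kept or changed sign is no measure of how steady the treatment difference is. Further positive values were 0.57 for Mrps27, 0.53 for Mrpl16 and 0.51 for Mrps10. All 3 turned negative without control replicate 1 (-0.44, -0.10 and -0.40), and Mrps27 also without sh replicate 2 (-0.21). Further negative ones were -0.58 for Mrps12, -0.53 for Mrpl54 and -0.29 for Mrpl19. They turned positive without sh replicate 1 (0.50, 0.85 and 0.10), and the first 2 of them without control replicate 2 (0.40 and 0.80).

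In sd, Mrps18c stood out as the gene with both treated libraries below both controls, at 12.7 and 11.3 FPKM against 36.4 and 17.02. The difference was -1.001 (SE 0.62, 95% interval -2.49 to 0.49), and was -1.53 to -0.48 without each library in turn. The largest positive difference was that of Mrps22, a mitochondria-specific small-subunit protein. It was at 1.41 and 7.05 in control and 5.94 and 9.80 in sd (0.98, SE 0.84), the first sd library lying below the second control. Mrpl49 was at 9.56 and 27.39 in control and 27.403 and 33.8 in sd, so that the ranges almost touched (0.86, SE 0.73). Mrpl40 was at 17.8 and 35.9 in control and 29.8 and 52.1 in sd (0.62, SE 0.73). Mrpl10 (0.62) and Mrpl45 (0.58) had both within-number values above 0, but the sign turned for Mrpl10 without control replicate 1 (-0.11) and for Mrpl45 without sd replicate 2 (-0.0029). Mrpl44, Mrps31, Mrps6 and Mrps9 were the other genes with both sd libraries above the controls, the first 3 of them named after their values were seen. On the negative side, Mrpl54 differed by -0.76, Mrps18a by -0.50, Mrps36 by -0.21 and Mrps12 by -0.15. Without sd replicate 1 the values of Mrpl54, Mrps18a and Mrps12 were 0.70, 0.26 and 0.92, and without control replicate 2 those of Mrpl54 and Mrps12 were 0.57 and 0.83.

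In dd, Mrpl18 had the largest difference of all 3 comparisons. It was at 69.8 and 45.6 FPKM in control and 119 and 116 in dd, where the mean was 117 ± 2.74 (SD, n = 2) against 57.7 ± 17.1. Both dd libraries were above both controls, and Mrpl18 lay between these levels in sh (96.9 and 61.2) and sd (109 and 63.2). The difference was 1.04 (SE 0.67, 95% interval -0.55 to 2.64), did not pass (adjusted p = 1 in limma), and was 0.74 to 1.35 without each library in turn. Mrpl1, the homologue of a bacterial large-subunit protein, was also separate, at 3.74 and 6.36 in control and 8.25 and 10.6 in dd (0.81, SE 0.57). Mrps33 was at 11.6 and 25.1 in control and 23.1 and 40.5 in dd (0.80, SE 0.66), and Mrpl21 at 9.77 and 23.9 against 20.8 and 31.8 (0.71, SE 0.67), both with overlapping ranges. Mrps22 differed by 0.87 and by -0.0024 without control replicate 1. Mrpl3, Mrps14 and Mrps9 completed the set of genes with both dd libraries above the controls, the first 2 of them named after their values were seen.

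Mrps18a was the gene with both dd libraries below both controls, at 2.28 and 3.66 FPKM against 4.90 and 9.33 (-0.999, SE 0.73, 95% interval -2.75 to 0.75). Without each library in turn, Mrps18a differed by -1.40 to -0.60. Its relative Mrps18c followed at 17.8 and 13.1 against 36.4 and 17.02 (-0.67, SE 0.62). The first dd library of Mrps18c lay just above the second control library. Mrpl54, a mitochondria-specific large-subunit protein, was lower than the control library of the same number in all 6 treated libraries. Its levels were 12.5 and 84.5 in control, 8.03 and 60.3 in sh, 6.31 and 54.0 in sd, and 5.95 and 46.9 in dd. Its dd difference of -0.90 (SE 1.62, no term for the replicate number) became 0.44 without control replicate 2 and 0.50 without dd replicate 1. Those 2 values set unequal replicate numbers against each other. Within each number Mrpl54 was lower in dd, at 5.95 against 12.5 and 46.9 against 84.5. Mrps5 and Mrps12 differed by -0.46 and -0.45 in dd. Without control replicate 2 these values were 0.03 and 0.53, and without dd replicate 1 they were 0.11 and 0.17.

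**Figure D5:**
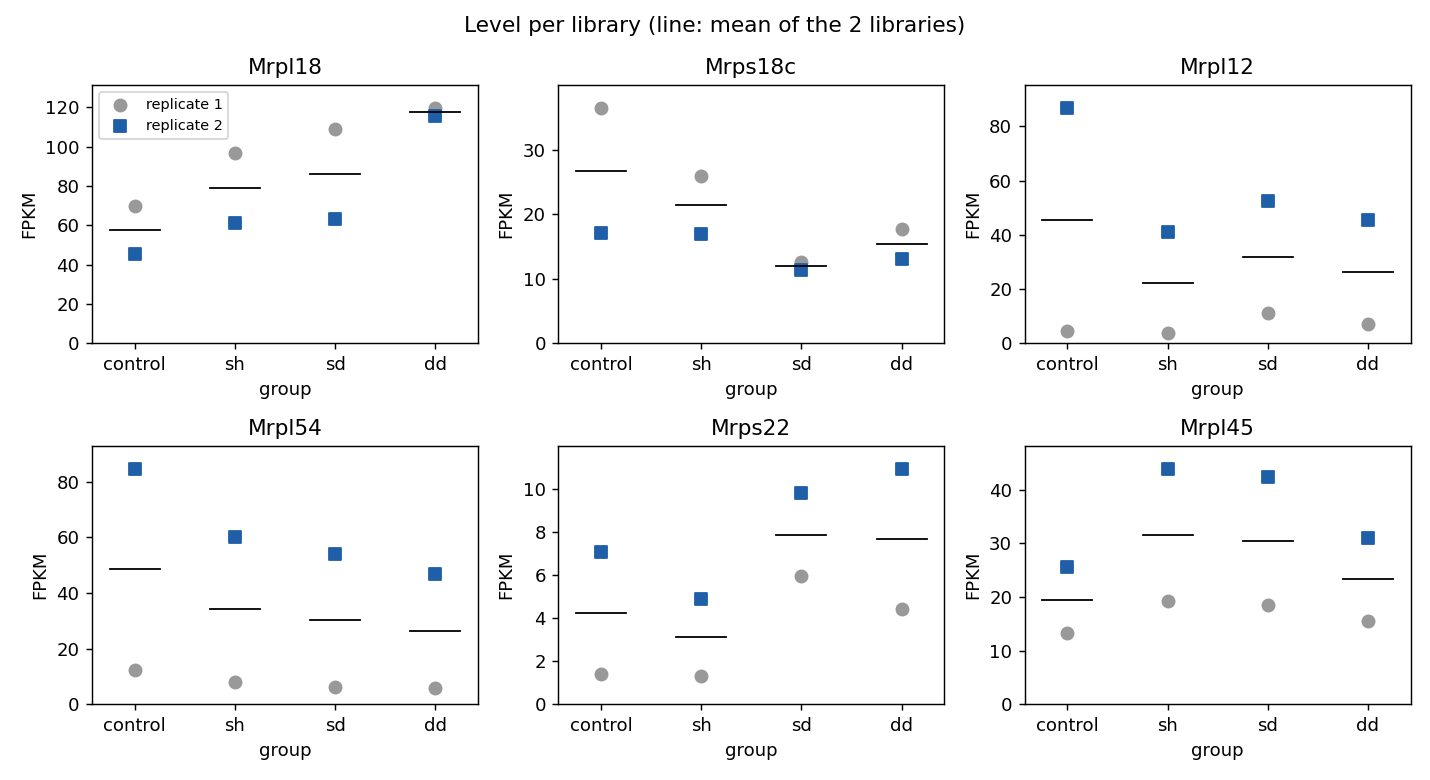
FPKM per library (y axis, from 0) by group for 6 genes, grey circles for replicate 1, blue squares for replicate 2 and lines at the mean of both. Mrpl18 is at 119 and 116 in dd against 69.8 and 45.6 in control, Mrps18c is lowest in sd, and in Mrpl12 and Mrpl54 every replicate 2 library lies above every replicate 1 library.

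Other genes of mitochondrial translation gave 0 calls against control as well, in limma on the deposited values and under median ratio scaling, quantile normalization and voom. The 11 tested of 12 translation factors, which start, extend and end the polypeptide, had median differences of 0.50 in sh, 0.36 in sd and 0.48 in dd. Over all genes tested the medians were 0.15, 0.17 and 0.06. The medians of the translation factors remained above 0.2 under the 3 scalings, and all 3 comparisons share the control libraries. Levels were low there: in the first control library the 12 factors had a median of 1.14 FPKM, and 7 reached 1. The release factor gene Mtrf1 was at 0.388 and 2.83 FPKM in control, 1.81 and 6.88 in sh, 1.59 and 6.07 in sd, and 2.94 and 6.75 in dd, each treated library above the control library of its number. Mtfmt, which formylates the initiator transfer RNA, was at 0.0853 and 2.69, 0.836 and 4.41, 2.14 and 4.42, and 1.31 and 4.56. For the 23 tested of 24 assembly and ribosomal RNA modification genes the medians were 0.27, 0.02 and 0.14, the sd median turning negative with median ratio (-0.02) and quantile (-0.06) scaling, and for the 15 tested of 17 mitochondrial aminoacyl-tRNA synthetases 0.18, 0.28 and 0.29. Lars2, the leucyl-tRNA synthetase, varied most: 5.50 and 219 in control, 5.82 and 99.8 in sh, 3.67 and 25.03 in sd, and 9.60 and 5.10 in dd. The 7 tested of 8 transcription and RNA stability genes had medians of 0.33, 0.37 and 0.47.

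The 5 genes of mitochondrial ribosomal proteins that carry other symbols showed the same division by replicate number. Their median differences from control were -0.04, 0.15 and 0.02, each with a sign that changed under at least 1 scaling (0.18 in sh with voom, -0.09 in sd with quantile, -0.03 and -0.05 in dd with median ratio and voom). Between replicate numbers the median was 1.87, with 4 higher and 1 lower as deposited and under each of the 3 scalings. Chchd1 was at 32.9 and 208 in control, 31.5 and 125 in sh, 50.01 and 122 in sd, and 45.8 and 154 in dd. Dap3, a small-subunit protein that binds GTP, was at 2.50 to 6.28 in replicate 1 and 14.9 to 19.98 in replicate 2. The lower one was Ptcd3, a pentatricopeptide protein of the small subunit, at 17.6 to 21.1 and 5.83 to 13.4. The mitochondrial genome transcripts had median differences from control of -0.29, -0.04 and 0.44, and the cytosolic ribosomal protein genes of 0.04, -0.04 and 0.12. The sign of the cytosolic median changed in sh under median ratio scaling and voom (-0.12 and -0.13).

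Some of the promoters hold short motifs that the choice of members did not use. RefSeq promoter sequences (GRCm38.p6, from 250 bases before to 50 after the start) were held for 69 of the 78 genes. The core letters of Ets-family sites, CCGGAAG on either strand, were found in 26 of the 69 (37.7%), in 22.1% of 7762 other protein-coding genes tested and in 9.93% of all 27025 promoters. The core of YY1, AAGATGGC, was found in 12 (17.4%, against 5.79% and 3.19%), and in 8 of them on the gene strand, between bases 12 and 37 after the start. Its letters include ATG, the letters of a start codon, and whether these matches lie at coding starts was not tested. The core of NRF1, CGCATGCG, which reads the same on both strands and belongs to a factor known for nuclear genes of the respiratory chain, was found in 7 (10.1%, against 4.79% and 2.07%). Motifs were counted on both strands, also where they overlap each other, and 38 of the 69 (55.1%) held at least 1 of the 3, against 29.95% and 14.2%. A match is a description of letters, and no binding was measured here. The 3 stretches below, from 70 bases before to 30 bases after the start, were the ones that held 2 kinds of motif. Each is on the plus strand, 5′ to 3′, with motif letters in capitals:
Mrpl22, chr11:58171594-58171693: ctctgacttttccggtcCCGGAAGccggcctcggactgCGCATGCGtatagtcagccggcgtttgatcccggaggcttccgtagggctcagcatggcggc
Mrps18a, chr17:46110934-46111033: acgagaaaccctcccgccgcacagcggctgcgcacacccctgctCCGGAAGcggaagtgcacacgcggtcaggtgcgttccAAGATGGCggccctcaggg
Mrps27, chr13:99344716-99344815: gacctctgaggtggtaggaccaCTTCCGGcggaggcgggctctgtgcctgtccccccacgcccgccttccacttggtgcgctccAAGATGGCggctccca
In Mrpl22 the Ets core begins 53 bases and the NRF1 core 32 bases before the start. In Mrps18a the Ets core begins 26 bases before the start and the YY1 core at base 12 after it. In Mrps27 the Ets core lies on the other strand, written CTTCCGG, and the YY1 core begins at base 15 after the start. Mrps18a and Mrps27 hold the same pair of cores. Their differences from control in sh, sd and dd were -0.09, -0.50 and -0.999 for Mrps18a and 0.57, 0.39 and -0.14 for Mrps27, none of them past the test.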

How the data were processed

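RNA of 8 mESC libraries was measured as 1 table of FPKM per gene, deposited by the authors. CASAVA 1.4, HISAT2 and the mm10 build are named in the submitters' processing notes; for the counting program, annotation, strand and FPKM formula nothing is stated in these sources. Of 58420 rows, 52338 had values, and 52081 of these matched GENCODE M21 by identifier, which gave symbols, coordinates and exon lengths. FPKM times exon length came out as whole reads within 0.02 for 98.3% to 98.9% of values under 100 reads, which gave the depth; floors of 3 reads cover counting error only.

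Values were tested as log2(FPKM + 1) with limma 3.58.1 (R 4.3.3), a scale that understates changes of low genes. All 14561 genes with a mean FPKM of at least 1 were fitted together, with a variance trend, two-sided p-values and Benjamini-Hochberg adjustment per contrast at 0.05. The 4 groups shared 1 fit without a block, and replicate 2 was set against replicate 1 with group as a term. The fits were tested on simulated data. Alternatives were pseudocounts of 0.1 and 0.5, no filter or a mean of at least 5, quantile and median ratio scaling, limma's voom on recovered reads with trimmed-mean (TMM) factors computed by script, a fit of the groups compared, no group term, the replicate number as a block, and leaving out each library.

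The members and the gene lists were chosen with earlier results of these data known. Genes named are the 5 members with the largest difference of each sign per comparison (against control, only those whose values share a sign within both replicate numbers), the 3 highest and 3 lowest of each subunit by mean, members picked for their role, and the most different genes of each other list. The lists were mitoribosomal proteins with other symbols, translation factors, assembly and RNA modification, aminoacyl-tRNA synthetases, transcription and RNA stability, cytosolic ribosomal proteins, mitochondrial genome transcripts, and pluripotency, fibroblast and primitive endoderm markers. Kinases and other genes whose symbols resemble cytosolic ribosomal proteins were left out of that list.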

Additional observations from a re-analysis of the deposited data

How the results depend on the processing

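Depth was lowest in both control libraries, and what it adds to the intervals against control was not measured. No member was called against control under any alternative run. The labels name no block, so whether the replicate numbers pair the samples is not known. Differences between the numbers correlated at 0.75 to 0.893 over the 6 pairs of groups. With the replicate number as a block (paired fit, 3 residual degrees of freedom), 0 members were called in sh, sd and dd, with 0, 4 and 5 at an unadjusted p under 0.05 against 480, 945 and 1310 of all genes. Medians were as without the block, and the median SE of the members was 0.36 with it and 0.74 without. Moved medians of the small subunit were, in sh, -0.046 (quantile) and -0.047 (median ratio, with or without the block), and in sd 0.062 (quantile), 0.0046 (median ratio, with or without the block) and 0.041 (voom). Between replicate numbers, quantile, median ratio and voom gave 24, 26 and 25 members higher (27.6%, 34.3% and 34.2% of all genes), 11, 11 and 11 lower (29.8%, 24.9% and 27.3%), large-subunit medians of 0.30, 0.23 and 0.29 and small-subunit medians of 0.54, 0.54 and 0.66; a pseudocount of 0.1 gave 1.28.

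Leaving out each library in turn, medians of the large and small subunit ran from -0.35 to 0.72 and -0.44 to 0.65 in sh, -0.24 to 0.84 and -0.35 to 0.83 in sd, and -0.24 to 0.82 and -0.41 to 0.53 in dd; members lower in replicate 2 numbered 2 to 4. Single genes that changed sign in sh were Mrps27 (-0.44 to 1.57), Mrpl16 (-0.10 to 1.16), Mrps10 (-0.40 to 1.42), Mrpl12 (-2.63 to 1.31), Mrps12 (-1.66 to 0.50), Mrpl54 (-1.91 to 0.85) and Mrpl19 (-0.69 to 0.10). In sd they were Mrpl10 (-0.11 to 1.36), Mrpl45 (-0.0029 to 1.16), Mrpl54 (-2.21 to 0.70), Mrps18a (-1.25 to 0.26) and Mrps12 (-1.22 to 0.92), and in dd Mrps22 (-0.0024 to 1.74), Mrpl54 (-2.29 to 0.50), Mrps5 (-1.03 to 0.11) and Mrps12 (-1.43 to 0.53). A library left out sets unequal replicate numbers against each other, and the lone library of a group is assumed to vary like the others.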

Other observations

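Mrps11 and Mrpl46 lie head to head on chromosome 7 (GRCm38), where their exons overlap by 173 bases on opposite strands. They were chosen after their values were seen. Mrpl46, a mitochondria-specific protein of the large subunit, was at 29.744 and 29.749 FPKM in control, 26.4 and 30.3 in sh, 21.01 and 32.1 in sd, and 20.2 and 31.6 in dd, replicate 1 first. Mrps11, a bacterial-family protein of the small subunit, was at 2.22 and 9.82, 2.68 and 7.74, 2.35 and 8.27, and 3.17 and 4.58 in the same order. Every replicate 2 library of Mrps11 was above every replicate 1 library. Replicate 2 minus replicate 1 on the log2(FPKM + 1) scale was 0.35 (SE 0.24, adjusted p = 0.225) for Mrpl46 and 1.22 (SE 0.29, adjusted p = 0.0061) for Mrps11 in limma. The difference between these values was not tested. Strand use in the authors' counting is unknown, and reads in the shared bases cannot be assigned to one of these genes.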
